A study of Mus musculus with 37 samples.

Results

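The genes described here encode the subunits of the respiratory chain and of ATP synthase, the 5 protein complexes by which mitochondria oxidise NADH and succinate and make ATP. They were taken by symbol: the 13 protein-coding genes of the mitochondrial genome, and the nuclear genes of the Nduf, Sdh, Uqcr, Cox and Atp5 families, with pseudogenes left out and a mean of at least 1 CPM (counts scaled to a library total of 1000000). Of 56980 genes in the table, 91 met the rule, 13 of them mitochondrial and 78 nuclear, and all 91 were among the 19332 genes tested. At the threshold on level, Cox7a1 was just inside with a mean of 1.08 CPM and Cox6b2 just outside with 0.855 CPM.

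The libraries came from brain of male wild type C57BL/6J mice, which the study names as medial prefrontal cortex, and held polyadenylated RNA of all cell types. Adult mice (start on postnatal day 55) or adolescent mice (start on postnatal day 25) drank oral antibiotics or stayed on water, and received subcutaneous morphine (15 mg/kg) or saline for 5 days, which gives 8 groups. Each group had 3 to 5 libraries after 2 libraries with totals under 1000000 counts were dropped, which left 17 adult and 18 adolescent libraries, 17 from mice on antibiotics and 18 on water, and 19 from mice given morphine and 16 given saline. The labels do not name the antibiotics. Since every library is bulk tissue, fewer cells of a type and less RNA per cell cannot be told apart.

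The 35 libraries held 10630727 to 31560468 counts, with 12206761 to 17467680 in adults and 10630727 to 31560468 in adolescents. Replicate 1 of the adolescent water saline group stood apart: its summed level of 9 striatal marker genes was 1785 CPM and that of 8 oligodendrocyte genes 20247 CPM, both the highest of the 35 libraries, while the other adolescent and adult libraries stayed at or below 278 CPM for the striatal list. The 10 markers of cortical excitatory neurons summed to 6578 to 8305 CPM in adults and 5026 to 8997 CPM in adolescents, far above the striatal list in every library. In all, 7 adolescent libraries and 0 adult libraries held more than 20 counts of pancreatic islet hormone genes. The nuclear members called with age are counted below with and without these libraries. Most single genes and gene lists are given for all 35 libraries only.

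Complex I passes electrons from NADH to ubiquinone, complex II does so from succinate, complex III passes them to cytochrome c, complex IV to oxygen, and complex V uses the proton gradient that complexes I, III and IV build. Complex II is built from nuclear genes alone, and each of the others joins subunits of both genomes. Neurons depend on this chain for most of the ATP that restores ion gradients after firing. Mitochondrial mRNAs are transcribed as long precursors from both strands of a circular genome and cut out between tRNAs, whereas each nuclear subunit has a promoter of its own.

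Part of the mitochondrial genome has a near-identical copy on chromosome 1, which bears on how reads of those genes can be counted. Comparing the mitochondrial mRNAs with annotated GENCODE M21 transcripts (GRCm38) found 7 nuclear pseudogenes at 99% identity or more: 681 bases of mt-Co2 matched Gm28661, 678 bases of mt-Atp6 matched Gm10925, 783 bases of mt-Co3 matched Gm28437 and 294 bases of mt-Nd4l matched Gm10222, each without a mismatch. Gm28438 matched 345 bases of mt-Nd3 with the single substitution T3C, Gm29216 matched the last 483 bases of mt-Co1 with A1066T, and Gm28439 matched the first 876 bases of mt-Nd4 without a mismatch (mitochondrial base first, positions counted from 1 at the gene's first base). The start of mt-Nd3 and of its copy are shown because they differ by only 1 base, in capitals, in 60 bases.
mt-Nd3 (chrMT:9459-9518, plus strand): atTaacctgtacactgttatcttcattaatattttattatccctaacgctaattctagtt
Gm28438 (chr1:24613060-24613119, minus strand): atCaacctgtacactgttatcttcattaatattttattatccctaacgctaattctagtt
The short mt-Atp8 gene lies between these matches in gene order and had no annotated copy of its own at that identity.

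The mitochondrial genes fell into a high and a low set. The 7 genes outside the block from mt-Co2 to mt-Nd4l had mean levels of 2376 CPM per kb of transcript (mt-Nd5) to 10022 CPM per kb (mt-Co1), which encode a complex I subunit and the catalytic subunit of complex IV. The 6 genes inside the block (mt-Co2, mt-Atp8, mt-Atp6, mt-Co3, mt-Nd3 and mt-Nd4l) had 9.80 CPM per kb (mt-Atp8) to 189 CPM per kb (mt-Co2). The highest library value inside the block was 269 CPM per kb and the lowest outside it 1819 CPM per kb, so the sets did not overlap in any of the 35 libraries. A read that fits a gene and its copy equally well has no single place of origin, so the values of mt-Co2, mt-Atp6, mt-Co3, mt-Nd3 and mt-Nd4l, and of the copied parts of mt-Co1 and mt-Nd4, are uncertain. The low set did not match the annotated copies one for one. mt-Atp8, the lowest of the 13, had no annotated copy of its own. It lies between mt-Co2 and mt-Atp6, whose copies cover bases 24614885 to 24615565 and 24613974 to 24614651 of chromosome 1. Its end (base 7969) overlaps the start of mt-Atp6 (base 7927), which is copied. The bases between those copies were not compared, so whether all of mt-Atp8 is copied there was not checked. mt-Nd4, at 2575 CPM per kb, and mt-Co1 stood in the high set although partly copied. The part of the copies in these levels was not tested.

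**Figure D1:**
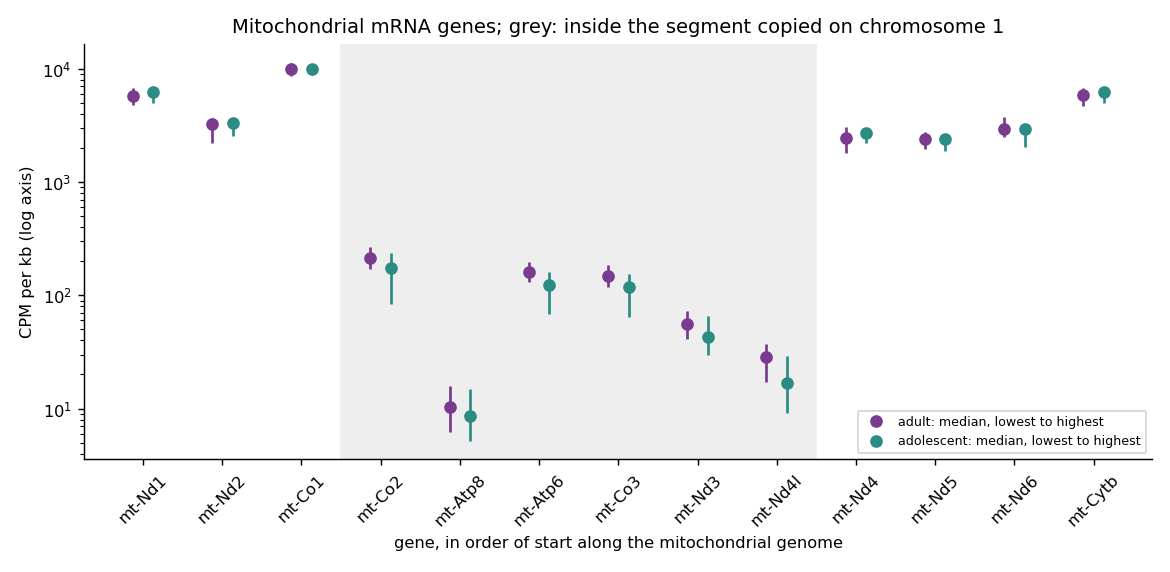
Level of each mitochondrial mRNA gene in CPM per kb of transcript (log axis), in genome order, for 17 adult (left of each pair) and 18 adolescent libraries. Points are medians and lines run from the lowest to the highest library; the 6 genes on grey lie far below the other 7 at both ages.

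Together the 13 mitochondrial genes made up 3.37% to 4.66% of all counts in a library (median 4.18%), and the 78 nuclear genes 0.818% to 0.950% (median 0.885%). Among nuclear members the highest level per length was that of Cox8a, a small complex IV subunit, at 706 CPM per kb, and the lowest that of Ndufa4l2, a relative of the complex IV subunit Ndufa4, at 2.60 CPM per kb. The spread between libraries of a group, as an SD on the log2 CPM scale, was 0.0395 (Sdha) to 0.478 (Cox7a1) for nuclear members with a median of 0.0922. It was 0.0957 to 0.160 for the 7 mitochondrial genes outside the copied block and 0.324 to 0.465 for the 6 inside it.

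Isoform pairs were used unequally in this tissue. Cox6a1 stood at 549 CPM per kb and its heart and muscle counterpart Cox6a2 at 9.43 CPM per kb. Cox7a2 stood at 170 CPM per kb, Cox7a2l at 97.8 CPM per kb and the muscle form Cox7a1 at 2.75 CPM per kb. Ndufa4 stood at 271 CPM per kb against 2.60 CPM per kb for Ndufa4l2. Of the 3 genes for the identical c-ring subunit of ATP synthase, Atp5g3 stood at 224 CPM per kb, Atp5g2 at 63.8 CPM per kb and Atp5g1 at 24.3 CPM per kb. The order of the last pair rests on the 4715 bases of the principal Atp5g1 transcript: without division by length the mean levels were 162 CPM for Atp5g3, 46.6 CPM for Atp5g2 and 115 CPM for Atp5g1.

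The summed mitochondrial level was 33240 to 46378 CPM in adult libraries (median 40797) and 35160 to 45751 CPM in adolescent libraries (median 42116), so the ranges overlapped over most of their length. The summed nuclear level was 8078 to 9139 CPM in adult libraries (median 8511) and 8044 to 9517 CPM in adolescent libraries (median 9161), and the lowest adolescent value was that of the library that stands apart. The 7 adolescent libraries with islet reads held 8829 to 9517 CPM (median 9331) and the 11 others 8044 to 9453 CPM (median 8955). No test was made on these sums.

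The ratio of the mitochondrial to the nuclear sum was lower on antibiotics than on water in adolescents given morphine. There it was 4.15 to 4.53 in adolescents on antibiotics and 4.59 to 4.99 in adolescents on water, without overlap. With saline it was 4.25 to 4.53 in adolescents on antibiotics and 4.42 to 5.27 in adolescents on water, or 4.72 to 5.27 on water without the library that stands apart. In adults the groups overlapped: with morphine 4.11 to 5.04 on antibiotics and 4.51 to 5.19 on water, and with saline 4.35 to 5.09 on antibiotics and 4.53 to 4.99 on water. These ratios describe the libraries and were not tested.

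**Figure D2:**
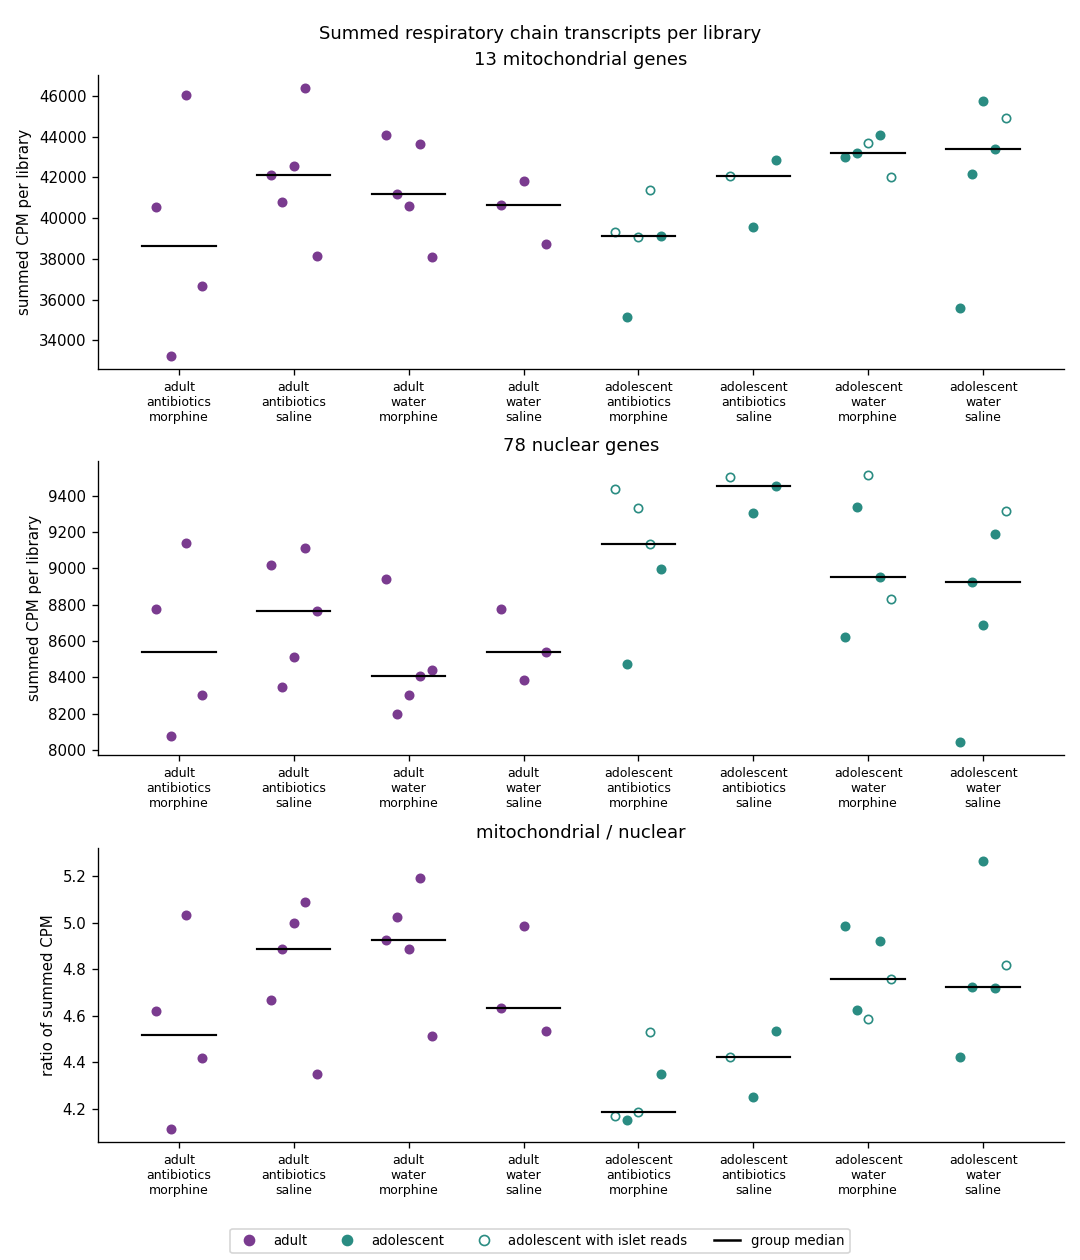
Summed CPM of the 13 mitochondrial genes, summed CPM of the 78 nuclear genes, and their ratio, for each of 35 libraries by group (adult groups left). Filled and open circles are libraries, open ones the 7 adolescent libraries with islet reads, and bars are group medians; the 5 adolescent antibiotics morphine libraries lie at ratios of 4.15 to 4.53, below the 5 adolescent water morphine libraries.

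Of the members that passed with age, nearly all nuclear ones were lower in adults, and the few mitochondrial ones, all from the low block, were higher. Averaged over the 4 treatments, 34 of 78 nuclear members were lower and 1 was higher in adults, and 5 of 13 mitochondrial members were higher and 0 lower (edgeR quasi-likelihood test, Benjamini-Hochberg adjusted p under 0.05). Of all 19332 genes tested, 20.3% passed, 11.2% lower and 9.11% higher in adults. The median log2 fold change was -0.09 over the nuclear members and 0.00 over all genes tested, and 43 of the 78 nuclear members did not pass. All 5 mitochondrial calls were genes with a nearly full-length nuclear copy. The block they come from had a median summed level of 376 CPM, against 41812 CPM for all 13 mitochondrial genes. The calls thus do not describe mitochondrial transcripts as a whole, whose summed level was not higher in adults by its median.

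Of the small subunits of complex III, which sit around its catalytic core, Uqcr11 fell furthest. Its level was 58.9 to 77.7 CPM in adult libraries (median 68.5) and 73.4 to 94.6 CPM in adolescent libraries (median 88.8). All 17 adult libraries lay below the adolescent median, and the ranges overlapped only between 73.4 and 77.7 CPM. The log2 fold change was -0.33 ± 0.04 (SE; edgeR adjusted p = 3.7e-08). Uqcrq, another small subunit, had 81.4 to 102 CPM in adults (median 95.9) and 95.5 to 121 CPM in adolescents (median 111), a log2 fold change of -0.22 ± 0.03 (edgeR adjusted p = 8.1e-07). Both genes fell in each of the 4 treatments taken singly except that Uqcrq did not pass on water with saline. In all, 4 of the 8 nuclear complex III members fell, Uqcr10 and the iron-sulphur subunit Uqcrfs1 among them.

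Of the 5 complexes, complex IV had the largest share of lower members, 9 of 14, with a median log2 fold change of -0.15. Cox8a had 299 to 413 CPM in adults (median 357) and 327 to 467 CPM in adolescents (median 427), where the lowest adolescent value again came from the library that stands apart. Its log2 fold change was -0.26 ± 0.04 (edgeR adjusted p = 1.9e-06). Cox6b1, which lies at the cytochrome c side of the enzyme, had 122 to 154 CPM in adults (median 138) and 138 to 176 CPM in adolescents (median 162), a log2 fold change of -0.22 ± 0.03. The ubiquitous isoforms Cox6a1 and Cox7a2 fell by 0.18 and 0.19 on the log2 scale, and Ndufa4 fell by 0.14. The tissue forms did not pass: the log2 fold change was -0.15 ± 0.09 for Cox6a2, -0.21 ± 0.12 for Ndufa4l2 and 0.37 ± 0.15 for Cox7a1, whose median level was 1.16 CPM in adults and 0.949 CPM in adolescents. Cox4i1, a subunit the symbol rule does not match, fell by 0.16 on the log2 scale, as did cytochrome c itself (Cycs) by 0.12 and cytochrome c1 (Cyc1) by 0.08.

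In complex V, 7 of 17 members fell. Atp5g1, for the c-ring, had 95.8 to 119 CPM in adults (median 107) and 103 to 135 CPM in adolescents (median 123), a log2 fold change of -0.20 ± 0.03 (edgeR adjusted p = 3.5e-06). Atp5d, the delta subunit of the central stalk, had 131 to 160 CPM in adults (median 148) and 133 to 192 CPM in adolescents (median 174), a log2 fold change of -0.23 ± 0.03. Of the other c-ring genes, Atp5g3 fell by 0.09 on the log2 scale, and Atp5g2 had -0.07 ± 0.04 (edgeR adjusted p = 0.18). The alpha and beta subunits that carry catalysis, Atp5a1 and Atp5b, did not pass. In complex II, Sdhb and Sdhc fell, by 0.09 and 0.07, and Sdha and Sdhd did not pass. Neither Sdhb nor Sdhc passed with all 37 libraries, with a term for islet reads or without the libraries with islet reads.

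Complex I consists of core subunits and of accessory subunits around them. Of 28 accessory members 12 fell and 0 rose, led by Ndufa3 (-0.19 ± 0.04), with a median log2 fold change of -0.09. Of 7 nuclear core members 0 fell and 1 rose, with a median of -0.01. The one that rose was Ndufs1, the largest iron-sulphur subunit, with 121 to 136 CPM in adults (median 124) and 107 to 132 CPM in adolescents (median 120), a log2 fold change of 0.08 ± 0.02 (edgeR adjusted p = 0.014). All 17 adult libraries lay above the adolescent median. Core transcripts were longer, with a median of 1623 bases against 748 bases for accessory ones, and the difference between core and accessory members was not tested. Of the accessory members that fell, Ndufa1, Ndufa7, Ndufa11, Ndufa13, Ndufb6, Ndufb11, Ndufc1, Ndufs4 and Ndufv3 did not pass without the libraries with islet reads. In that fit 7.98% of all genes were lower.

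**Figure D3:**
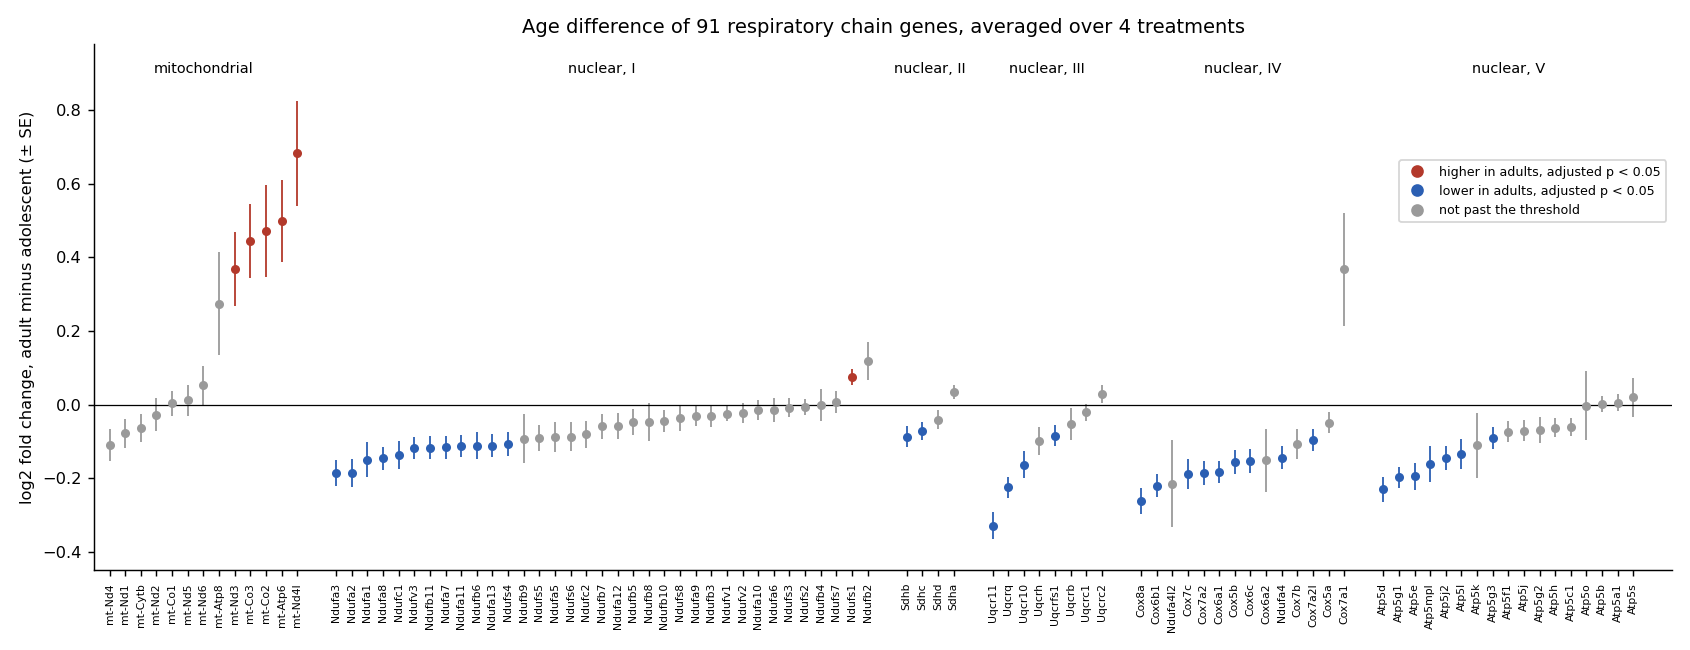
Log2 fold change with age, adult minus adolescent, of the 91 genes (points, with SE bars), averaged over the 4 treatments and ordered within the mitochondrial genes and the nuclear genes of complexes I to V. Red points rose and blue points fell at an adjusted p under 0.05; the 34 blue points are all nuclear, and 5 of the 6 red points are mitochondrial.

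The mitochondrial genes called with age were mt-Nd4l, mt-Atp6, mt-Co3, mt-Co2 and mt-Nd3. mt-Nd4l, a small complex I subunit, had 5.06 to 11.1 CPM in adults (median 8.43) and 2.72 to 8.70 CPM in adolescents (median 5.02), a log2 fold change of 0.68 ± 0.14 (edgeR adjusted p = 9.3e-04). mt-Atp6, the proton channel subunit of ATP synthase, had 89.3 to 134 CPM in adults (median 109) and 46.1 to 109 CPM in adolescents (median 83.8), a log2 fold change of 0.50 ± 0.11. All 17 adult libraries lay above the adolescent median for both genes, while the ranges overlapped. The log2 fold change was 0.45 ± 0.10 for mt-Co3 and 0.47 ± 0.13 for mt-Co2, both core subunits of complex IV, and 0.37 ± 0.10 for mt-Nd3 of complex I. mt-Atp8, with a median of 2.11 CPM in adults and 1.75 CPM in adolescents, had 0.27 ± 0.14 (edgeR adjusted p = 0.16).

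The rows of the nuclear copies of these 5 genes were also higher in adults, with log2 fold changes of 0.32 to 0.55. The other 2 copies did not go with their genes: Gm29216 and Gm28439 were each higher by 0.49, while mt-Co1 had 0.00 ± 0.03 and mt-Nd4 -0.11 ± 0.04. All 7 copies passed, and their summed level was 531 to 767 CPM in adults and 351 to 606 CPM in adolescents. The summed level of the 6 mitochondrial genes in the block was 325 to 490 CPM in adults (median 401) and 169 to 421 CPM in adolescents (median 320). Among adolescents it was 304 to 421 CPM in the 7 libraries with islet reads and 169 to 401 CPM in the 11 others. Reads of a gene and its copy cannot be told apart here, so the age differences of the 5 genes cannot be assigned to one row of each pair.

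The other 7 mitochondrial genes, which hold nearly all mitochondrial reads, did not pass. Their log2 fold changes ran from -0.11 ± 0.04 for mt-Nd4 (edgeR adjusted p = 0.069) and -0.08 ± 0.04 for mt-Nd1 (adjusted p = 0.16) over mt-Cytb, mt-Nd2, mt-Co1 and mt-Nd5 to 0.05 ± 0.05 for mt-Nd6. Without the adolescent library that stands apart, mt-Nd4 and mt-Nd1 passed as lower in adults, at -0.12 and -0.09 (edgeR adjusted p = 0.034 and 0.038). Of the mitochondrial rRNAs, mt-Rnr2 fell by 0.14 on the log2 scale.

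The nuclear calls depended in number on the libraries used. Without the library that stands apart, 41 nuclear members were lower in adults, all 34 among them, where 13.2% of all genes were lower. With a term for islet reads 19 of the 34 passed, and the share of all genes lower in that fit is not given here. Without the 7 libraries with islet reads 15 of the 34 passed, where 7.98% of all genes were lower. That setting was chosen after the data were seen and leaves 28 libraries. Uqcr11, Uqcrq, Cox8a, Cox6b1, Atp5g1 and Atp5d were among the 15. Uqcr10, Uqcrfs1, Ndufa4, Atp5g3, Cox7a2l, Sdhb and Sdhc were not. The 5 mitochondrial calls passed in both, with mt-Atp8 in addition. Leaving out 1 library at a time, 27 of the 34 nuclear calls and all 5 mitochondrial ones passed in each of the 35 fits.

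Other features moved with age in the same libraries. Protein-coding genes with short transcripts were more often lower in adults: 205 of 828 tested genes under 1000 bases (24.8%) against 460 of 4846 genes of 4000 bases or more (9.49%). Of nuclear members, 23 of 46 under 1000 bases (50%) and 9 of 25 between 1000 and 2000 bases (36%) were lower, against 24.8% and 17.3% of all protein-coding genes in these ranges. Of the long nuclear RNAs 5 of 8 rose, Neat1 by 0.72 and Malat1 by 0.58 on the log2 scale (3 of 8 without the libraries with islet reads), and their summed level was 3407 to 7503 CPM in adults and 2918 to 5317 CPM in adolescents. The microglial markers fell in 6 of 8 and those of oligodendrocyte precursors in 3 of 6. The oligodendrocyte markers had a median log2 fold change of -0.65 and the striatal markers of -0.45, with none past the threshold in edgeR (6 of 8 and 3 of 9 at an unadjusted p under 0.05). Without the library that stands apart these medians were -0.29 and -0.10, with 0 of 8 oligodendrocyte markers past the threshold, and 1 striatal marker higher and 1 lower of 9. Of other marker lists, 1 of 8 astrocyte and 1 of 10 cortical excitatory genes fell, and 1 gene rose and 1 fell among 8 interneuron and among 8 endothelial markers. The part of transcript length, of RNA retained in nuclei and of cell composition in the respiratory chain result was not tested.

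**Figure D4:**
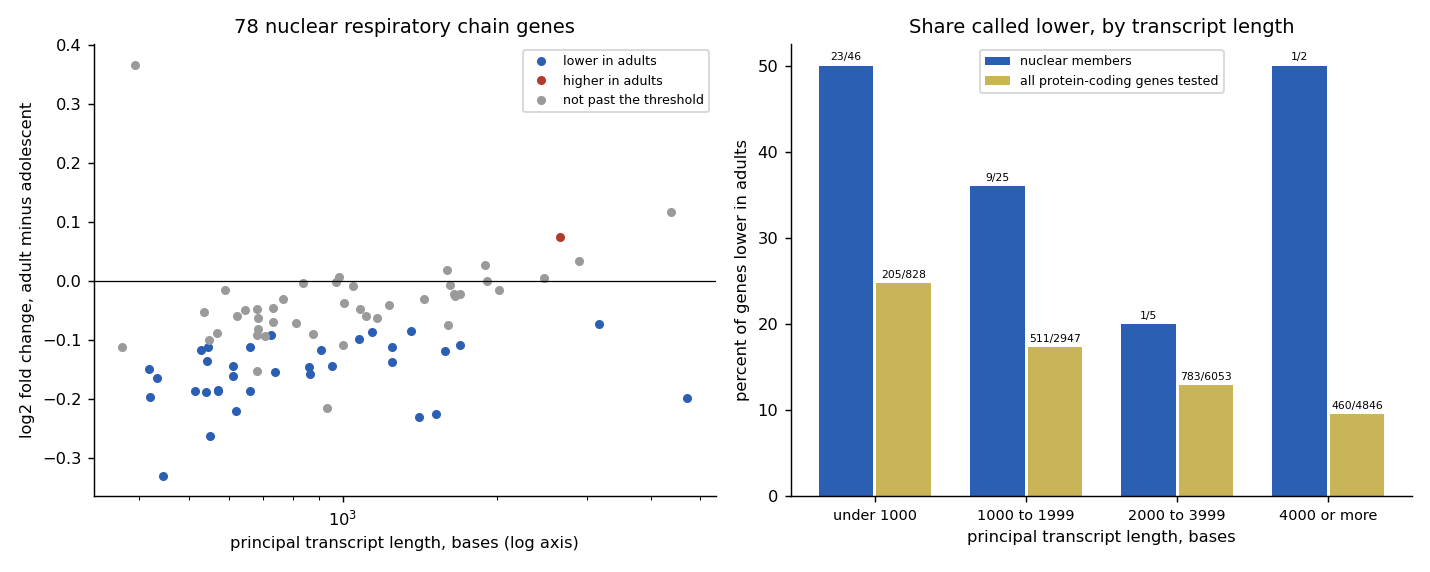
Left, log2 fold change with age (adult minus adolescent) of the 78 nuclear members against principal transcript length (log axis, bases). Right, percent of nuclear members and of all protein-coding genes tested that were lower in adults, by transcript length, with counts above the bars; 23 of 46 members and 205 of 828 genes under 1000 bases were lower, and the 2 longest bins hold only 5 and 2 members.

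Genes that build, feed and regulate the chain were counted in the same way, against 11.2% lower and 9.11% higher of all genes. Of 49 assembly factors 10 fell and 4 rose, with Cox14 and Ndufaf8 lower by 0.19 and 0.24 and Ttc19, which acts on complex III, higher by 0.12 on the log2 scale. The mitochondrial ribosomal proteins, which translate the 13 mitochondrial mRNAs, fell in 22 of 78 and rose in 0, and the cytosolic ones fell in 17 and rose in 2 of 78. Of 21 genes of pyruvate entry and the citric acid cycle 2 fell (Pdhb and Pdhx), near the share of all genes, and 0 rose. Of 16 glycolytic genes 4 fell, Ldha by 0.22. Of 22 import genes 3 fell, Timm13 by 0.22 and Timm8b by 0.22 among them, and 2 rose, the chaperone Hspa9 and the receptor Tomm20. These shares were near those of all genes. Of 29 genes that copy, transcribe or process mitochondrial nucleic acids 3 fell, among them the helicase Twnk, and 2 rose, among them the polymerase Polg, again near the shares of all genes. Of 14 nuclear regulators 3 rose, Ppargc1a by 0.13 among them, and Gabpa fell by 0.14. Of 11 antioxidant genes 5 fell, and of 22 outer membrane and carrier genes 7 fell and 1 rose.

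In single treatments fewer members passed. Adult against adolescent, 4 nuclear members fell on antibiotics with morphine (of all genes 1.87% passed, 1.13% lower and 0.74% higher). On antibiotics with saline 5 fell (1.39% of all genes passed, 0.998% lower and 0.388% higher), and on water with morphine 7 fell (0.626% of all genes passed, 0.46% lower and 0.166% higher). On water with saline 2 fell (3.39% of all genes passed, 1.92% lower and 1.47% higher). No member was called higher by edgeR in any of the 4. Uqcr11 was the one member called in all 4, with log2 fold changes of -0.34 ± 0.07, -0.36 ± 0.08, -0.30 ± 0.07 and -0.32 ± 0.08 in that order. Cox8a, Cox7a2, Cox6a1 and Cox6c passed on water with morphine, and Atp5g1 and Ndufa3 on antibiotics with saline. Leaving out 1 library at a time gave 0 to 8, 2 to 7, 2 to 9 and 0 to 8 calls in the same order. On water with saline the count was 8 without replicate 1 of the adolescents, 1 without each of the other 4 adolescent libraries and 0 without each of the 3 adult libraries. On water with morphine it was 2 to 4 without replicates 2 and 3 of the adolescents or 2, 3 and 5 of the adults. On antibiotics with saline it was 2 without replicate 2 or 5 of the adolescents. On antibiotics with morphine it was 0 to 2 without replicates 3, 4 and 5 of the adolescents or 1, 2 and 5 of the adults, and 8 without replicate 3 of the adults. The interaction of age with antibiotics called 0 members in edgeR and in DESeq2 (2 at an unadjusted p under 0.05), as did that of age with morphine (also 2), where 0% and 0.00517% of all genes passed.

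Antibiotics raised a small set of nuclear members. Averaged over the 4 strata of age and injection, 11 of 78 nuclear members were higher and 0 lower on antibiotics, and 1 of 13 mitochondrial members was lower (edgeR adjusted p under 0.05). Of all genes tested 10.2% passed, 5.16% higher and 5.05% lower. The median log2 fold change was 0.04 over the nuclear members and -0.07 over the mitochondrial ones, against 0.00 over all genes. The rises were small, of 5.13% to 22.6%.

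Of the 11, 6 belonged to complex I, and 4 of them to its core: Ndufs3 and Ndufs7 of the arm that reduces ubiquinone, and Ndufv1 and Ndufv2 of the tip that takes up NADH. Ndufs3 had 73.8 to 89.7 CPM on antibiotics (median 79.9) and 69.7 to 80.3 CPM on water (median 73.1), and all 17 antibiotic libraries lay above the water median. Its log2 fold change was 0.12 ± 0.03 (edgeR adjusted p = 0.0012). Ndufv2 had 96.9 to 114 CPM on antibiotics and 90.6 to 112 CPM on water, a log2 fold change of 0.10 ± 0.03, and Ndufv1 and Ndufs7 had 0.07 ± 0.02 and 0.09 ± 0.03. Of the 28 accessory members Ndufb9 and Ndufa6 rose. Ndufb9 had 22.0 to 40.4 CPM on antibiotics (median 33.8) and 23.5 to 34.9 CPM on water (median 27.4), a log2 fold change of 0.29 ± 0.07 (edgeR adjusted p = 0.0047), and 19.5% of its exon bases are shared with another gene annotated on the same strand.

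The other 5 came from the remaining complexes. They were the iron-sulphur subunit Sdhb of complex II (0.09 ± 0.03), the core protein Uqcrc1 of complex III (0.07 ± 0.02), Cox5b (0.11 ± 0.03) and Cox7a2l (0.11 ± 0.03) of complex IV, and the gamma subunit Atp5c1 of complex V (0.08 ± 0.02). Cox7a2l had 93.8 to 120 CPM on antibiotics (median 112) and 91.9 to 111 CPM on water (median 100), and 13 of 17 antibiotic libraries lay above the water median. Cox5b, Cox7a2l and Sdhb were both lower in adults and higher on antibiotics, 8.82% of the 34 that fell with age and 27.3% of the 11 that rose on antibiotics. The latter share is smaller than that of the 34 lower in adults among all 78 nuclear members, so the overlap does not stand out. The share of all genes called in both ways was not counted, and both comparisons use the same 35 libraries.

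The mitochondrial gene that fell was mt-Nd2, a core subunit of complex I. With morphine it had 2980, 2311, 3678 and 2788 CPM in adults on antibiotics and 3760, 3439, 3362, 3800 and 3318 CPM in adults on water. In adolescents with morphine it had 2997, 2643, 3147, 3308 and 3006 CPM on antibiotics and 3428, 3765, 3595, 3621 and 3638 CPM on water, where the groups did not overlap. With saline the log2 fold change was -0.01 ± 0.09 in adults and -0.07 ± 0.09 in adolescents, and with morphine -0.27 ± 0.09 and -0.26 ± 0.08. Averaged it was -0.15 ± 0.04 (edgeR adjusted p = 0.026), and it missed the threshold without replicate 2 of the adolescent antibiotics saline group (adjusted p = 0.058) or replicate 3 of the adult water saline group (adjusted p = 0.056). mt-Nd2 also missed the threshold without the libraries with islet reads and with no low-count filter. The interaction of antibiotics with morphine called 0 members in edgeR and in DESeq2 (5 at an unadjusted p under 0.05), where 0.00517% of all genes passed.

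**Figure D5:**
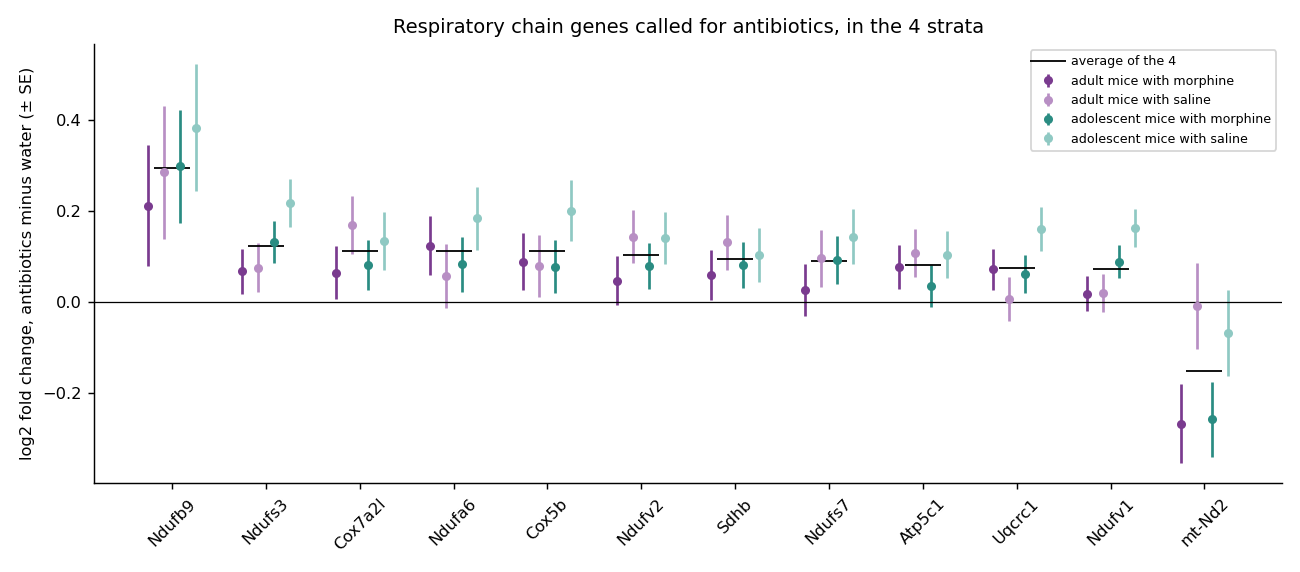
Log2 fold change on antibiotics (antibiotics minus water, with SE) of the 12 members called on the average of the 4 strata, shown in each stratum, adult strata left; black dashes mark the average. All 11 nuclear genes lie above 0 in every stratum, and mt-Nd2 lies near -0.26 in both morphine strata and nearer 0 in both saline strata.

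No member passed in edgeR for antibiotics in any single stratum. At an unadjusted p under 0.05 there were 2 in adults with morphine, 3 in adults with saline, 10 in adolescents with morphine and 19 in adolescents with saline, and DESeq2 called 2 in the last of these and 0 in the others. Of all genes 1.92% passed in adults with morphine, 0.031% in adults with saline, 1.11% in adolescents with morphine (0.481% higher and 0.626% lower) and 0.0103% in adolescents with saline. On the average, leaving out replicate 3 of the adult water saline group cut the 12 members to 6, and 5 of the 11 nuclear genes (Ndufs3, Ndufb9, Cox7a2l, Ndufv1 and Ndufv2) passed in each of the 35 fits that left out 1 library. Without the 7 libraries with islet reads 3 of the 78 nuclear members passed, Ndufs3, Ndufv1 and Uqcrc1. In that fit 2.94% of all genes were higher and 3.15% lower, so the members were near the share of all genes. With all 37 libraries 4 nuclear genes passed, and the share of all genes in that fit is not given here.

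Other lists were counted on antibiotics in the same libraries, against 5.16% higher and 5.05% lower of all genes. The cytosolic ribosomal proteins rose in 19 of 78 and fell in 0 (5 and 0 without the libraries with islet reads), with a median log2 fold change of 0.08, Rps14 by 0.15 among them. The mitochondrial ribosomal proteins rose in 5 and fell in 3 of 78, shares near those of all genes. Of 49 assembly factors 3 rose, also near that share, and 1 fell: Surf1, Sdhaf1 and Foxred1 rose and Bcs1l, which inserts the iron-sulphur protein of complex III, fell by 0.24 on the log2 scale. The microglial markers fell in 6 of 8, Cx3cr1 by 0.24, and their summed level was 254 to 352 CPM on antibiotics and 297 to 413 CPM on water. Of 8 astrocyte markers 3 fell, Aqp4 by 0.46. The part of cell composition in the respiratory chain result was not tested.

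No member passed for morphine. Averaged over the 4 strata of age and drink, 0 of 91 members passed in edgeR and 0 in DESeq2, 10 had an unadjusted p under 0.05, and 0.316% of all genes passed. The smallest p values were those of Atp5e, the epsilon subunit of ATP synthase, Ndufa13 and Uqcrq. Atp5e had 58.1 to 87.1 CPM with morphine (median 72.4) and 67.4 to 89.6 CPM with saline (median 78.2), a log2 fold change of -0.11 ± 0.04 (edgeR adjusted p = 0.20). The values were -0.08 ± 0.03 for Ndufa13 and -0.07 ± 0.03 for Uqcrq (edgeR adjusted p = 0.28 and 0.29). The median log2 fold change was -0.03 over the nuclear members and -0.01 over the mitochondrial ones. In single strata edgeR and DESeq2 called 0 members (0 to 11 at an unadjusted p under 0.05), where 0% of all genes passed in adults, 0.0466% in adolescents on antibiotics (0.0155% higher and 0.031% lower) and 0.331% in adolescents on water. In the same libraries 2 of 8 microglial markers, Cx3cr1 and Tmem119, and the interneuron gene Sst fell with morphine.

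The NRF1, ETS and YY1 motifs, which the choice by symbol did not use, were each in a minority of the promoters of nuclear members. Their shares were above those of all genes with a promoter, which were not limited to genes expressed here. Of the 78 nuclear members 65 had a promoter in the RefSeq table (GRCm38.p6), which holds 250 bases before to 50 bases after each start. NRF1 and the ETS factor GABPA are known activators of respiratory chain genes. On either strand, the NRF1 motif CGCNTGCGC was in 29.2% of the 65 member promoters and 6.47% of the promoters of 27025 genes. The ETS motif CCGGAAG was in 23.1% of members and 9.12% of all, the YY1 motif AAGATGGCG in 9.23% and 1.49%, and CCAAT in 43.1% and 37.9%. Among the 29 members lower in adults with a promoter, 20.7% held the NRF1 motif and 27.6% the ETS motif, against 36.1% and 19.4% of the 36 not past the threshold. Each motif was counted by itself, whether or not its match overlapped that of another, and a match is a description of the sequence. The promoters of Uqcr11 and Cox8a, which fell with age, and of Ndufs3, which rose on antibiotics, are shown with NRF1, ETS and YY1 matches in capitals.
Uqcr11 (chr10:80406772-80407071, minus strand): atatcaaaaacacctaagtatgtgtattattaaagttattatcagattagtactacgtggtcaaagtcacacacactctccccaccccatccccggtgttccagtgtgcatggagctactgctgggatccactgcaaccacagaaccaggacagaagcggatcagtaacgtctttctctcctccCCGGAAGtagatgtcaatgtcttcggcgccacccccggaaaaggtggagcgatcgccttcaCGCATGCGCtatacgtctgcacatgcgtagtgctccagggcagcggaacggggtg
Cox8a (chr19:7217567-7217866, minus strand): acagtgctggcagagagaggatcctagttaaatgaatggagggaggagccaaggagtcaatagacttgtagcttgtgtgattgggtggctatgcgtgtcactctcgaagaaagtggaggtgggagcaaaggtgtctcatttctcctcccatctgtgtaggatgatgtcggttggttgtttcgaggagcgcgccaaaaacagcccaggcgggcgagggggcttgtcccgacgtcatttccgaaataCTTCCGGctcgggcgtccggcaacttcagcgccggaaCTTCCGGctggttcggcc
Ndufs3 (chr2:90904672-90904971, minus strand): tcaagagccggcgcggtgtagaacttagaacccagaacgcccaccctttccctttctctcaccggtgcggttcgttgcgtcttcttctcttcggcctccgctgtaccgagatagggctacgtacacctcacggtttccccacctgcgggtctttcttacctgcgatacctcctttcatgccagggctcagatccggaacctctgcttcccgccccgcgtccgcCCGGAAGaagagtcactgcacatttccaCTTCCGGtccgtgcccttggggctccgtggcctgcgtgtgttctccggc
Uqcr11 held 1 ETS and 1 NRF1 match, and Cox8a and Ndufs3 held 2 ETS matches each.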

How the data were processed

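Raw read counts per gene were deposited by the authors for 37 libraries of polyadenylated brain RNA. Per the submitters' processing notes the tools were STAR 2.7.10a and DESeq2 with the mm10 build, and the deposited columns are named like STAR's per-gene output. Strand setting: not given in the sources used here. Annotation release: likewise. GENCODE M21 gave symbols to 52073 of 56980 identifiers.

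The 35 libraries over 1000000 counts were fitted in R 4.3.3 with edgeR 4.0.16 (TMM, filterByExpr on the 8 groups, robust quasi-likelihood fit of 1 mean per group). The 18 contrasts were 3 averages, 3 interactions and 12 differences of 2 groups. P values were adjusted by Benjamini-Hochberg over the 19332 genes, with a threshold of 0.05. Fold changes are logarithms to base 2, and CPM uses TMM-scaled totals. The procedure was tested on simulated data. Labels do not say how mice relate to replicate numbers, so p values measure the spread between these libraries. Lengths are those of principal transcripts. Named genes were all mitochondrial members, per contrast and direction the 8 called members of smallest adjusted p and the 4 of largest change, where fewer than 3 were called the 3 of smallest p, all isoform members, and up to 3 called genes of each other list. Members and lists were chosen with earlier results of these data known. Alternatives were DESeq2 1.42.0, its size factors in edgeR, no low-count filter, totals without mitochondrial genes, all 37 libraries, 34 libraries (without adolescent water saline replicate 1), 28 libraries (without those with islet reads, chosen after seeing the data), an islet-read term, the replicate number as a block, only the compared groups, and leaving out each library.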

Additional observations from a re-analysis of the deposited data

Results flagged for a closer look

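Among 222 sets of 1 group and 1 value, 13 held a library whose distance from its nearest neighbour was large for the range of its group (Dixon's 95% critical value). Chance gives about 1 in 20. Atp5d was lowest in replicate 1 of the adolescent water saline group, at 133 CPM, against 176 to 183 CPM in the other libraries of that group. Cox7a2l was lowest in replicate 1 of the adolescent water saline group, at 93.3 CPM, against 105 to 110 CPM in the other libraries of that group. Cox8a was lowest in replicate 1 of the adolescent water saline group, at 327 CPM, against 424 to 438 CPM in the other libraries of that group. Uqcr11 was lowest in replicate 1 of the adolescent water saline group, at 75.2 CPM, against 89.6 to 94.6 CPM in the other libraries of that group. mt-Nd4 was lowest in replicate 1 of the adolescent water saline group, at 3236 CPM, against 3887 to 4052 CPM in the other libraries of that group. Atp5g1 was highest in replicate 1 of the adult water morphine group, at 119 CPM, against 107 to 109 CPM in the other libraries of that group. Cox6b1 was highest in replicate 1 of the adult water morphine group, at 153 CPM, against 134 to 139 CPM in the other libraries of that group. Cox6c was highest in replicate 4 of the adolescent antibiotics morphine group, at 233 CPM, against 210 to 214 CPM in the other libraries of that group. Ndufs1 was highest in replicate 1 of the adolescent antibiotics morphine group, at 132 CPM, against 120 to 124 CPM in the other libraries of that group. mt-Nd1 was lowest in replicate 2 of the adolescent antibiotics morphine group, at 4939 CPM, against 5594 to 5805 CPM in the other libraries of that group. mt-Nd6 was lowest in replicate 2 of the adolescent antibiotics morphine group, at 1228 CPM, against 1496 to 1587 CPM in the other libraries of that group. mt-Nd1 was lowest in replicate 1 of the adolescent water morphine group, at 5707 CPM, against 6093 to 6166 CPM in the other libraries of that group. mt-Nd4l was lowest in replicate 3 of the adult water morphine group, at 6.77 CPM, against 8.8 to 9.22 CPM in the other libraries of that group. Replicate 1 of the adolescent water saline group accounts for 5 of the 13 and is the library with high striatal and oligodendrocyte genes.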

How the results depend on the processing

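For age, the averaged count of called members was 40 and stayed within 1.5 times under the 8 alternatives other than the one without the libraries with islet reads, where it was 23 (8 higher, 15 lower). For antibiotics it was 12, and it became 5 with all 37 libraries, 6 with no low-count filter and 3 without the libraries with islet reads. For morphine and the 3 interactions it was 0 under each alternative run. Leaving out 1 library gave 34 to 49 for age and 6 to 14 for antibiotics. Age on water with saline had 2, and 8 in 34 libraries, 1 with DESeq2 size factors, with all 37 libraries, with the islet-read term, with totals without mitochondrial genes, with the replicate block and without islet-read libraries, and 0 with only the compared groups (0 to 8 leaving out 1). Age on water with morphine had 7, and 11, 3 and 1 in 34 libraries, in all 37 and without islet-read libraries (2 to 9 leaving out 1). Age on antibiotics with saline had 5, and 8, 9 and 9 in 34 libraries, with the islet-read term and with the replicate block (2 to 7 leaving out 1). Age on antibiotics with morphine had 4, and 8, 2, 2, 2 and 0 in 34 libraries, in all 37, with the islet-read term, with the replicate block and without islet-read libraries (0 to 8 leaving out 1). Antibiotics in adolescents with saline called 2 by DESeq2, in adolescents with morphine 2 with only the compared groups, and in adults with morphine 0 to 1 leaving out 1. The cause of these changes was not tested. The fits without islet-read libraries held fewer samples, and the fit with the islet-read term held all 35.

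Same-numbered replicates of different groups did not vary together (median correlation 0.0055 over 108 pairs, 14 above 0.1), so the number was not used as pairing. The summed levels moved by less than 1 SD under the other scalings and without replicate 1 of the adolescent water saline group.

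The sign of values that did not pass changed as follows, in log2. For age, mt-Nd2 was 0.0186 with the islet-read term and 0.0204 without islet-read libraries, mt-Nd5 was -0.0043 in 34 libraries, and mt-Co1 was -0.0047 in 34 libraries, -0.0065 without a filter and -0.0014 with the replicate block. For morphine, mt-Nd4l was 0.0065 with the replicate block, mt-Nd5 -0.0136 in 34 libraries and -0.0015 with the block, mt-Co1 0.0014 with all 37 libraries, and mt-Co2 -0.0002 in 34 libraries. With the islet-read term mt-Co2, mt-Co3 and mt-Atp6 were -0.0365, -0.0104 and -0.0188. For antibiotics, mt-Nd1 was 0.0007 with the replicate block, mt-Nd6 -0.0051 in 34 libraries and -0.005 without islet-read libraries, and mt-Atp8 -0.031, -0.0474 and -0.2209 in 34 libraries, with the islet-read term and without islet-read libraries. Leaving out 1 library, mt-Co1 ran from -0.0147 to 0.0201 and mt-Nd5 from -0.0099 to 0.0341 for age. For morphine the ranges were -0.0254 to 0.1531 for mt-Atp6, -0.0307 to 0.0012 for mt-Co1, -0.0517 to 0.1683 for mt-Co2, -0.0304 to 0.1463 for mt-Co3, -0.0809 to 0.0827 for mt-Nd3, -0.099 to 0.1391 for mt-Nd4l, -0.0157 to 0.0253 for mt-Nd5 and -0.0012 to 0.0492 for mt-Nd6. For antibiotics they were -0.0812 to 0.0683 for mt-Atp8, -0.0363 to 0.0005 for mt-Nd1 and -0.0098 to 0.0406 for mt-Nd6.

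The SE for age was 0.14 for mt-Atp8, 0.15 for Cox7a1 and 0.12 for Ndufa4l2, at mean levels of 2.00, 1.08 and 2.43 CPM. It was 0.13 for mt-Co2 and 0.11 for mt-Atp6, at 129 and 95.1 CPM, so level alone did not order the errors.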
